A study of Rattus norvegicus with 16 samples.

Results

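The 9 genes Actb, Gapdh, Pgk1, Ywhaz, Ppia, Hprt1, Tbp, Polr2a and Gusb, which are often used as internal references for expression measurements, were followed through the whole blood transcriptome of control rats. They were chosen by symbol and not by their values, and they are 9 of the 18031 genes that were listed in every library. Under these symbols the tables held 10 entries, because a second entry is called PPIA, and the entry with the higher summed count was used for each gene. The animals were 16 male Sprague-Dawley rats of 85 to 90 days, obtained from Charles River. Each rat received 4 saline injections of 1 ml/kg, spaced 2 h apart, without food or water during the dosing, and was sacrificed 3 h after the last injection. Blood was drawn from the heart and frozen, globin mRNA was depleted from the RNA, and polyadenylated RNA was sequenced. All 16 libraries belong to 1 group, saline control, and each carries the identifier of 1 control animal, so the question is how much each gene varied among control animals and with what it moved.

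Reference genes are used to bring samples to a common scale, which assumes that their transcripts keep a constant share of the RNA. They are drawn from processes that most cells need. Gapdh and Pgk1 encode consecutive enzymes of glycolysis, Actb encodes cytoplasmic beta-actin, Ywhaz encodes the zeta isoform of the 14-3-3 adaptor proteins, and Ppia encodes cyclophilin A, a peptidyl-prolyl isomerase. Hprt1 encodes the enzyme that salvages hypoxanthine and guanine, Gusb the lysosomal beta-glucuronidase, Tbp the TATA-binding protein and Polr2a the largest subunit of RNA polymerase II. Blood mixes erythrocytes, platelets, neutrophils, monocytes and lymphocytes, which hold very different amounts of RNA. In such bulk samples, fewer cells of a type and less RNA per cell cannot be told apart.

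The libraries held 21466776 to 31189549 estimated counts. Levels are given as normalized counts, that is, counts divided by DESeq2 size factors, and they were not set against each other between genes because no transcript lengths were used. Defining markers of blood cells were present in all 16 libraries, and the 10 globin entries still took 2.965% to 15.54% of the counts. Sums of marker lists of other tissues were highest in controls 2, 8, 10 and 12. The summed normalized count of 12 hepatocyte genes was 541800 in control 2 and 135100 in control 8, against a median of 18370. In control 2 the sum was mostly Alb (330300, median 17.51), whereas in control 8 Hp alone gave 62890, and Hp and Tf were counted in every library (medians 4279 and 12670). The sum of 8 cardiac muscle genes was highest in control 10, at 488.8 against a median of 21.45. Control 12 had the highest sums of the adipocyte genes (3993, median 77.98) and of the thymocyte genes (6070, median 336.2). Several results are given below with and without these 4 libraries. Single pair ratios, similar genes, gene families and scaling on single reference genes are given for all 16 libraries only. The animals came from repeats of the experiment at separate times, which the labels do not assign to libraries. The names of the deposited data also carry 6 codes, here called runs A to F. What these codes stand for is not stated. Runs differed in how many genes were listed, from 18677 to 26405.

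RefSeq (rat build GRCr8) gave the region before the start site for 6 of the 9 genes. The 100 bases before the start are printed for 2 pairs of genes. Gapdh and Polr2a had the highest relative variation of normalized counts, and Tbp and Gusb the lowest. Capitals mark TATAAA, the core of the TATA element, and GGGCGG, the core of a GC box. Each was searched on both strands, and they do not overlap here. Gapdh lies on the minus strand (chr4:159652468-159652567), Polr2a on the minus strand (chr10:54977180-54977279), Tbp on the plus strand (chr1:65136608-65136707) and Gusb on the plus strand (chr12:32337207-32337306).
Gapdh: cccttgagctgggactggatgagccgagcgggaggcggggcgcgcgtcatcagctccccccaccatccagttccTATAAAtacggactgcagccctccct
Polr2a: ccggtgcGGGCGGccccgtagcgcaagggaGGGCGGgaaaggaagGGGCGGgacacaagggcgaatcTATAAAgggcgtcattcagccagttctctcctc
Tbp: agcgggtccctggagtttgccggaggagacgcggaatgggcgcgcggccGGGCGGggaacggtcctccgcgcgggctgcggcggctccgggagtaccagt
Gusb: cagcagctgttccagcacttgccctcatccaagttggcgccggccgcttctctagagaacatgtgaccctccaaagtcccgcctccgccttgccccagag

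TATAAA stood in the 100 bases before the start of Gapdh, Polr2a and Ppia, and not in those of Hprt1, Tbp and Gusb. Among all 33469 promoters of the table, 5.78% held TATAAA and 21.6% held GGGCGG in this window. Gapdh and Gusb had no GGGCGG, Tbp and Ppia had 1, Hprt1 had 2 and Polr2a had 3. A match is a match of letters, and nothing was read from it about binding.

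The reference genes differed in how steady they were. The coefficient of variation (CV, the SD as a percentage of the mean over the 16 libraries) was lowest for Gusb, at 12.6%, and highest for Gapdh, at 53.0%, and the median of the 9 genes was 23.1%. Control 8 had the highest normalized count of 5 of the 9 genes (Actb, Gapdh, Hprt1, Ywhaz and Pgk1), while its Gusb level was the second lowest. The order by CV depended on the scaling. With libraries scaled by their total counts, Ywhaz had the lowest CV (22.4%), and Gusb stood at 25.9% and Tbp at 28.1%. Polr2a was then the most variable, at 46.0%, above Gapdh at 38.6%.

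**Figure D1:**
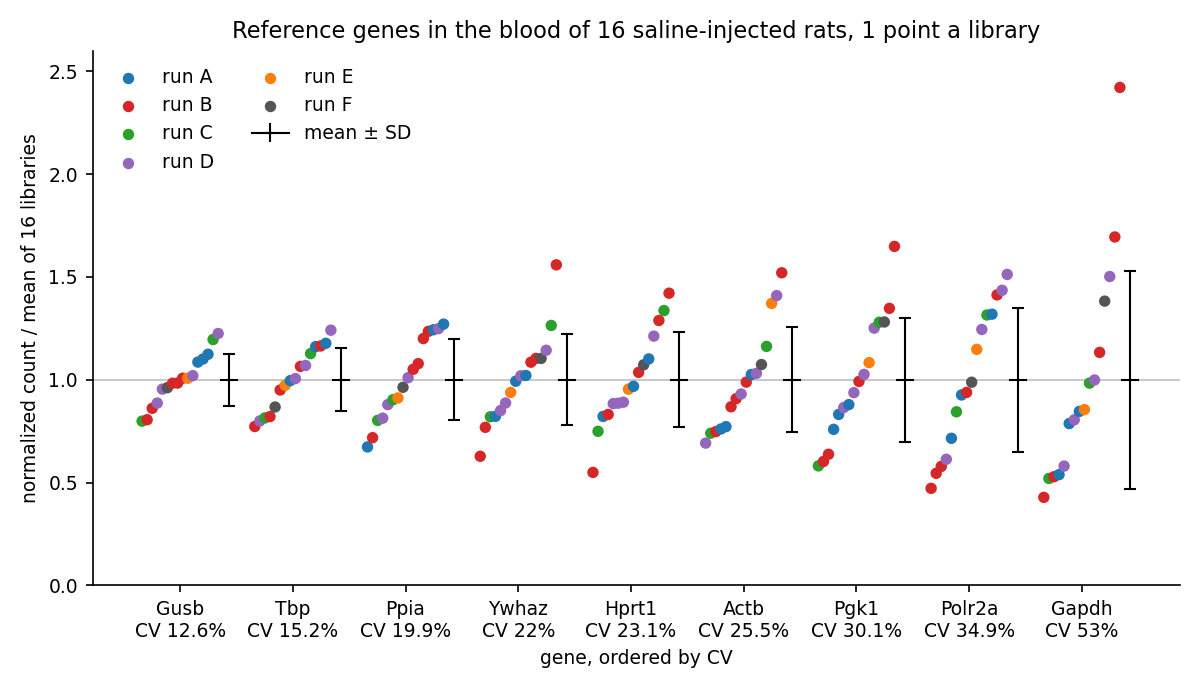
Normalized counts of the 9 reference genes in each of 16 libraries, divided by the mean of the gene, with genes ordered by CV. Points are coloured by run code and bars give the mean ± SD (n = 16), and the points of Gapdh spread from 16770 to 94900 normalized counts while those of Gusb stay between 433.3 and 664.5.

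Gapdh (ENSRNOG00000018630) averaged 39190 ± 20800 normalized counts (SD, n = 16). Its lowest value was 16770 in control 10, its median 33330 and its highest 94900 in control 8, a 5.66-fold range. The next highest library, control 7, had 66400, so control 8 stood well above all others. Without control 8 the CV of Gapdh was 42.4%. Without controls 2, 8, 10 and 12 it was 39.8%. Pgk1 (ENSRNOG00000002467), the next enzyme of the pathway, averaged 6200 ± 1870 normalized counts (SD, n = 16), with 3602 in control 6, a median of 5979 and 10220 in control 8. The same library was thus highest for both enzymes, and controls 3, 4, 6 and 10 were the lowest 4 for both.

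Actb (ENSRNOG00000034254) averaged 50450 ± 12900 normalized counts (SD, n = 16), from 34900 in control 12 over a median of 48410 to 76690 in control 8. Controls 8, 14 and 15 formed the upper end, at 76690, 71090 and 69170. Ywhaz (ENSRNOG00000008195, listed as YWHAZ) averaged 13600 ± 3000 (SD, n = 16), from 8537 in control 10 over a median of 13680 to 21200 in control 8. Those extremes lay apart from the rest, since the second lowest value was 10450 and the second highest 17190. Ppia (ENSRNOG00000006423) averaged 9131 ± 1810 (SD, n = 16), with 6146 in control 1, a median of 9008 and 11600 in control 2. Its upper end was crowded, with controls 2, 12, 3, 7 and 5 at 11600, 11400, 11350, 11280 and 10960. Of these, control 7 was also the second highest library of Gapdh.

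Hprt1 (ENSRNOG00000031367) averaged 713.6 ± 165 normalized counts (SD, n = 16), from 391.9 in control 4 over a median of 685.7 to 1014 in control 8. The second lowest library, control 6, had 534.5, so control 4 lay below all others. Tbp (ENSRNOG00000001489) averaged 180.2 ± 27.4 (SD, n = 16), with 139.2 in control 4, a median of 180.3 and 223.6 in control 12. Tbp had the fewest reads, 95 to 305 counts a library, and counting error alone would give it a CV of 7.57%. For the other 8 genes that value was at most 4.35%. Polr2a (ENSRNOG00000028834) averaged 2039 ± 713 (SD, n = 16), from 961.7 in control 7 over a median of 1963 to 3083 in control 13. Its low libraries were controls 7, 5 and 8, at 961.7, 1111 and 1179, in which Gapdh stood at 66400, 44400 and 94900. In the next lowest, controls 12 and 2 at 1250 and 1458, Gapdh stood at 22730 and 33150. Gusb (ENSRNOG00000000913) averaged 542.5 ± 68.1 (SD, n = 16), with 433.3 in control 9, a median of 540.0 and 664.5 in control 14, a 1.53-fold range.

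The reference genes were then set against genes of equal mean. Each was placed among the 200 genes nearest to it in mean normalized count. Of the 9, 6 had a CV below the median of those genes. As many neighbours lie below such a median as above it, so 6 of 9 is not by itself particular to these genes. For comparison, the 8672 genes whose mean reached 100 normalized counts had a median CV of 24.8%. Gusb was at percentile 6.5 of its neighbours (median CV 22.7%), Tbp at 8.0 (25.8%), Ppia at 8.5 (36.7%), Ywhaz at 11.0 (38.2%), Actb at 13.5 (41.6%) and Pgk1 at 32.5 (37.1%). Hprt1, at percentile 51.5, varied as much as its neighbours (median CV 22.4%). Polr2a was at percentile 65.5 (median 27.0%) and Gapdh at 83.0 (median 41.1%). Without control 8, Gapdh stood at percentile 52.5, and without controls 2, 8, 10 and 12 at 66.5. Variation within run codes alone put 5 of the 9 below the median, with Actb at percentile 49.0, Ywhaz at 48.0 and Pgk1 at 64.0, and scaling by total counts put Actb at 51.0.

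**Figure D2:**
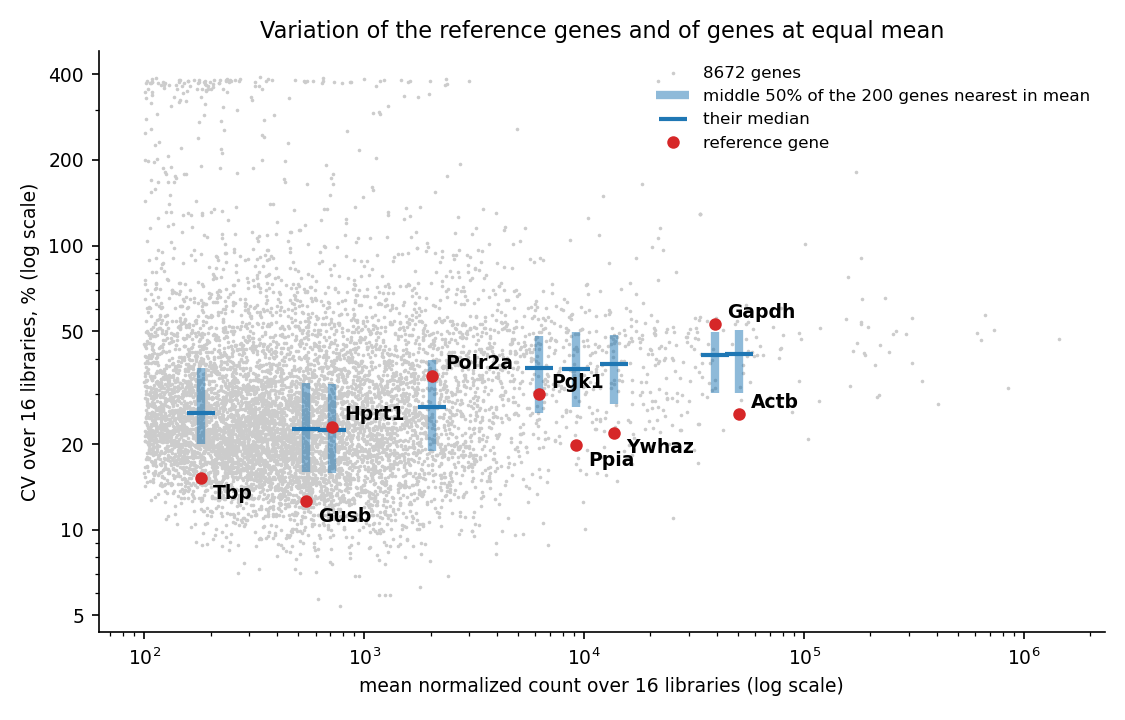
CV over 16 libraries (in %, log scale) against the mean normalized count (log scale) for 8672 genes in grey and the 9 reference genes in red. Blue bars span the middle 50% of the 200 genes nearest in mean to each reference gene and their ticks the median; Gusb, Tbp, Ppia, Ywhaz and Actb lie below the bars and Gapdh lies above.

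The neighbours are genes at a similar level and not at exactly the same one for the most abundant genes. The window of Actb ran from 14660 to 173200 normalized counts, because few genes are that abundant, while that of Tbp ran from 175.2 to 185.5. Steadier genes were found at each level. Ptprc, the leukocyte phosphatase CD45, had a CV of 11.0% (25200 ± 2780, SD, n = 16) and was the steadiest neighbour of Actb and of Gapdh. Hnrnpk, an RNA-binding protein, had a CV of 8.88% (6814 ± 605) and was the steadiest near Ppia and Pgk1, and Sf3b1, a splicing factor, had 10.1% (10040 ± 1020) and was the steadiest near Ywhaz. Near Polr2a it was PPP1CC, a catalytic subunit of protein phosphatase 1 (CV 7.76%), near Hprt1 it was Nubp2 (7.59%), near Tbp it was Rprd1a (8.88%) and near Gusb it was Asb8 (9.03%). These are lowest values among 200 genes each and were picked as such, so they are given as a description.

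Levels of Actb, Gapdh and Pgk1 rose with the level of myeloid marker genes across the animals. The myeloid level is the mean log2 level of 13 genes of neutrophils and monocytes, among them Csf3r, Cd14 and S100a8, and ranged from 11.02 in control 6 to 13.71 in control 8. Slopes are the log2 change of a gene per doubling of this level (edgeR quasi-likelihood test, 16 libraries, Benjamini-Hochberg adjustment over 10920 genes). The slope was 0.36 ± 0.075 (SE) for Actb (adjusted p = 0.00149), 0.59 ± 0.134 for Gapdh (adjusted p = 0.00328) and 0.41 ± 0.077 for Pgk1 (adjusted p = 0.000566). So 3 of the 9 genes passed the test, all rising, where 28% of all genes tested passed it and 16.8% passed it rising. A large share of the transcriptome thus moved with this level, and 3 of 9 is not by itself particular to these genes.

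The other 6 genes did not pass. Ywhaz had a slope of 0.21 ± 0.079 with an adjusted p of 0.0548, just short of the threshold, and Hprt1 had 0.18 ± 0.085 (adjusted p = 0.119). For Tbp (0.02 ± 0.075), Ppia (-0.03 ± 0.09), Polr2a (-0.03 ± 0.151) and Gusb (-0.08 ± 0.059) the slopes lay near 0. The median slope of all genes was -0.04. Polr2a combined a high CV with a slope near 0, so that its spread of 961.7 to 3083 followed another order of the libraries than that of Gapdh.

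**Figure D3:**
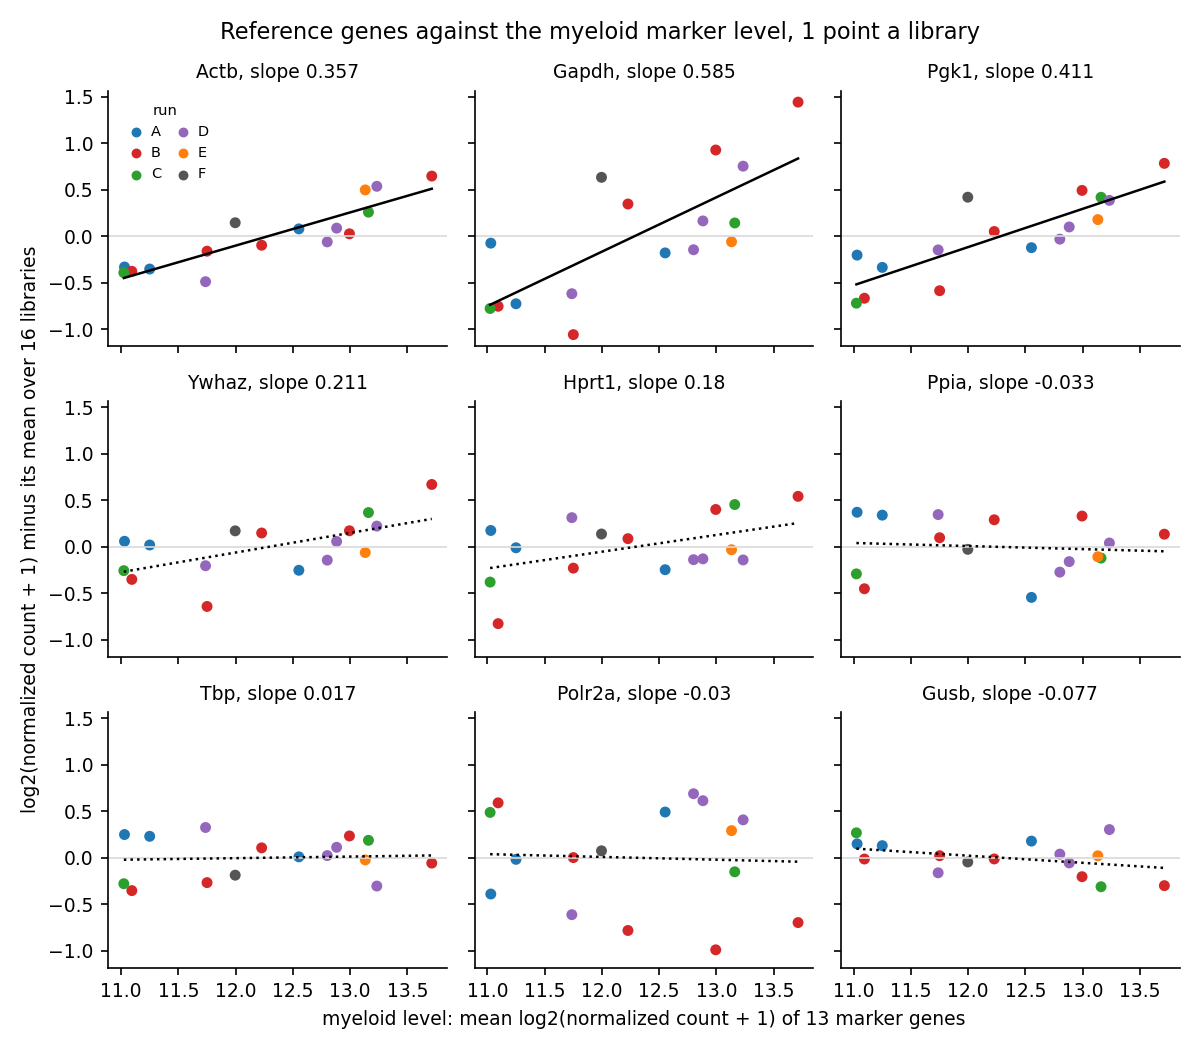
Log2 level of each reference gene relative to its own mean, against the myeloid marker level (mean log2 level of 13 genes), 1 point for each of 16 libraries, coloured by run code. Lines have the fitted slope, solid where the adjusted p was under 0.05; Actb, Gapdh and Pgk1 climb from controls 2, 4 and 6 at the left to control 8 at the right, while Gusb and Tbp stay flat.

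The 3 myeloid slopes held without controls 2, 8, 10 and 12, where again 3 of the 9 genes and 1621 genes in all passed. With run code as a term, which compares animals within runs, 4 of the 9 passed, the fourth being Ywhaz (0.29, adjusted p = 0.0402). The share of all genes passing in that setting is not given here. Scaling by total counts left 2 of the 3, with a slope of 0.30 and an adjusted p of 0.0664 for Actb, and changed the balance of all calls from 59.8% to 80.5% rising. The marker level itself was computed from normalized counts, so the gene and the level share their size factors.

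Lymphocyte markers gave the opposite picture. Over the mean log2 level of 10 T and B cell genes, which was lowest in control 8 (9.34) and highest in control 3 (10.68), Actb fell by 0.88 ± 0.239 per doubling (adjusted p = 0.0121), Gapdh fell by 1.72 ± 0.32 (adjusted p = 0.00144) and Pgk1 fell by 1.02 ± 0.234 (adjusted p = 0.00435). These 3 of 9 stand beside 28.6% of all genes, 14.3% falling. Ywhaz, at -0.57 ± 0.217, had an adjusted p of 0.0573. It passed with DESeq2 size factors in edgeR (adjusted p = 0.0464), where 4 of 9 passed beside 3130 of all 10920 genes. It also passed with DESeq2 (adjusted p = 0.0201), where 4 of 9 passed beside 3631 of all 18031 genes. The lymphocyte and myeloid levels moved against each other: 10 of the 13 myeloid genes fell with the lymphocyte level, and with both levels in 1 fit none of the 9 genes passed for either. In that fit the myeloid slope was 0.31 for Actb (adjusted p = 0.294), 0.31 for Pgk1 (adjusted p = 0.333) and 0.14 for Gapdh (adjusted p = 0.861), so it stayed near its former size for Actb and Pgk1. The lymphocyte slope was -1.41 for Gapdh (adjusted p = 0.626), -0.15 for Actb (adjusted p = 0.939) and -0.32 for Pgk1 (adjusted p = 0.831). With both levels fitted, 528 genes passed for the myeloid level, and for the lymphocyte level 0 genes passed in edgeR, with 840 at an unadjusted p under 0.05. The slopes of the reference genes on the 2 levels thus cannot be told apart. Without controls 2, 8, 10 and 12, no gene at all passed for the lymphocyte level (edgeR, 2431 at an unadjusted p under 0.05), although the slopes were no smaller, at -0.91 for Actb (adjusted p = 0.225), -1.78 for Gapdh (adjusted p = 0.0774) and -1.15 for Pgk1 (adjusted p = 0.116). Scaling by total counts left Gapdh alone past the threshold and moved the median slope of all genes from 0.08 to 0.43 and the rising share of the calls from 50% to 73.2%.

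Gapdh also rose with the platelet level, the mean log2 level of 10 platelet genes such as Pf4 and Gp9, by 0.56 ± 0.124 per doubling (adjusted p = 0.0118). It was 1 of the 9 genes, against 3.42% of all genes and 3.21% rising. For Ywhaz the slope was 0.25 ± 0.074 (adjusted p = 0.0881) and for Pgk1 0.28 ± 0.095 (adjusted p = 0.153). The Gapdh call ended when the 2 libraries farthest from the median, controls 10 and 12, were left out (slope 0.93, adjusted p = 0.0505) and when controls 2, 8, 10 and 12 were left out (slope 0.82, adjusted p = 0.228). None of the 9 genes passed with the globin share of the counts, where 0.0366% of all genes did. None passed with the total count (background 0.119%), where Ppia had the smallest unadjusted p, 0.00947, at a slope of 1.35 ± 0.465 and an adjusted p of 0.452.

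**Figure D4:**
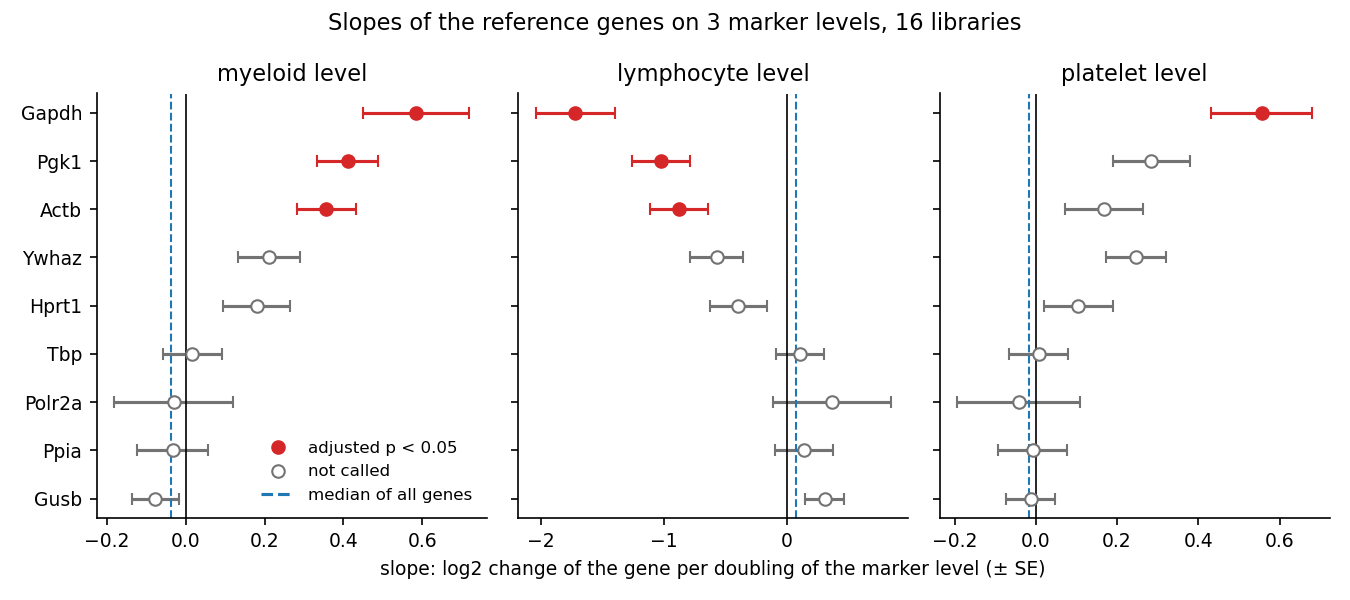
Slopes of the 9 reference genes (log2 change per doubling ± SE) on the myeloid, lymphocyte and platelet levels over 16 libraries. Filled red points have an adjusted p under 0.05 and dashed lines give the median slope of all genes; Gapdh, Pgk1 and Actb lie to the right for myeloid, to the left for lymphocyte, and only Gapdh is filled for platelet.

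The families of the reference genes were examined for the myeloid level in the same fit, in which 28% of all genes passed and 16.8% passed rising. Differences between families were not tested. Of 18 further glycolytic enzymes tested, 9 rose and 2 fell, with a median slope of 0.25 against -0.04 for all genes. Hk3 and Hk2, hexokinases that start the pathway, had the steepest slopes of the named ones (1.61 ± 0.141 and 1.48 ± 0.162), and Eno1 rose by 0.49 ± 0.068, whereas the muscle isoforms Pfkm (-0.27 ± 0.092) and Eno3 (-0.32 ± 0.099) fell. The CV of the enzymes with a mean of at least 100 ran from 18.4% for Gpi to 101% for Hk3. Actg1, the other cytoplasmic actin, had a slope of 0.59 ± 0.083 (adjusted p = 2.844e-05) and a CV of 39.5%. Of 6 other 14-3-3 genes 4 rose, and Ywhab (0.20 ± 0.052), Ywhag (0.28 ± 0.07) and Sfn (0.54 ± 0.131) were among them. Among those with a mean of at least 100, the CV was lowest for Ywhab (14.9%) and highest for Ywhah (34.8%). Ywhah rose with the platelet level instead (0.57 ± 0.086). None of 12 cyclophilins and none of 11 other RNA polymerase II subunits passed for the myeloid level, beside 28% of all genes. Among cyclophilins with a mean of at least 100, Ppil1 was the steadiest (CV 9.58%) and the mitochondrial Ppif the most variable (45.4%). By the same limit Polr2b was the steadiest polymerase subunit (12.7%), well under the 34.9% of Polr2a, with Polr2h at the other end (45.2%). The Polr2h entry used fell to 0 in its lowest library, against a median of 128.5, and another Polr2h entry was left out.

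Among the 16 factors that bind or resemble Tbp, Taf12 (0.20 ± 0.071) and Tbpl1 (0.49 ± 0.078) rose with the myeloid level and none fell, and CVs ran from 10.2% (Taf11) to 35.1% (Tbpl1). Of 12 genes of purine salvage and turnover, Aprt (0.17 ± 0.058) and Pnp (0.24 ± 0.079) rose and Impdh2 (-0.20 ± 0.068), Ppat (-0.22 ± 0.062) and Prps2 (-0.20 ± 0.068) fell. Aprt and Pnp are salvage enzymes like Hprt1, and Ppat and Impdh2 belong to synthesis from simpler precursors. The steadiest of this list was Nt5c2 (CV 11.9%) and the most variable Gda (64.5%). Of 15 lysosomal glycosidases 5 rose and none fell, beside 28% of all genes called and 16.8% called rising. The steepest was Galc (0.69 ± 0.069), which also had the highest CV (47.7%). Gusb, of the same class, did not pass.

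Of 23 further genes in use as references, 4 rose with the myeloid level, among them Ldha (0.40 ± 0.098) and Alas1 (0.60 ± 0.15), and 2 fell, among them Nono (-0.18 ± 0.062). These 6 of 23 are close to the 28% of all genes called. Their median slope was -0.07 and their median CV 22.4%, close to the 23.1% of the 9 genes. Puf60, a splicing factor, was the steadiest of them (1245 ± 73.4 normalized counts, CV 5.9%), and Alas1, which starts heme synthesis in non-erythroid cells, was the most variable (355.4 ± 249).

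Ratios between reference genes do not depend on the scaling of the libraries, and they gave another ranking than the CV. For each of the 36 pairs the SD of the log2 ratio over the 16 libraries was computed, and the mean of a gene's 8 values, here M, ranged from 0.384 for Ywhaz to 0.765 for Polr2a with a mean of 0.495. Hprt1 (0.421), Pgk1 (0.427), Actb (0.433) and Tbp (0.435) were close to Ywhaz, followed by Ppia (0.465), Gusb (0.486) and Gapdh (0.637). Gusb, lowest by CV, was thus the seventh by M. A low M means that a gene moved with the others, which is not the same as a constant level. Ywhaz, Hprt1, Pgk1 and Actb all had their highest normalized count in control 8, and so had Gapdh. How far such shared movement set the ranking was not tested.

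The tightest pair was Ywhaz and Pgk1 (SD 0.234). The ratio of Ywhaz to Pgk1 stayed between 1.797 in control 7 and 3.096 in control 6, a 1.72-fold range. Hprt1 with Ywhaz (0.251), Ppia with Tbp (0.254), and Actb with Pgk1 (0.262) were nearly as tight. The loosest pair was Gapdh and Polr2a (SD 1.054), whose ratio went from 7.188 in control 4 to 80.45 in control 8, an 11.2-fold range. Polr2a had an SD of at least 0.654 with every partner except Gusb (0.476). When the gene with the highest M was dropped in turn, Polr2a left first, then Gapdh, Gusb, Actb, Pgk1, Ywhaz and Hprt1, and Ppia and Tbp remained.

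**Figure D5:**
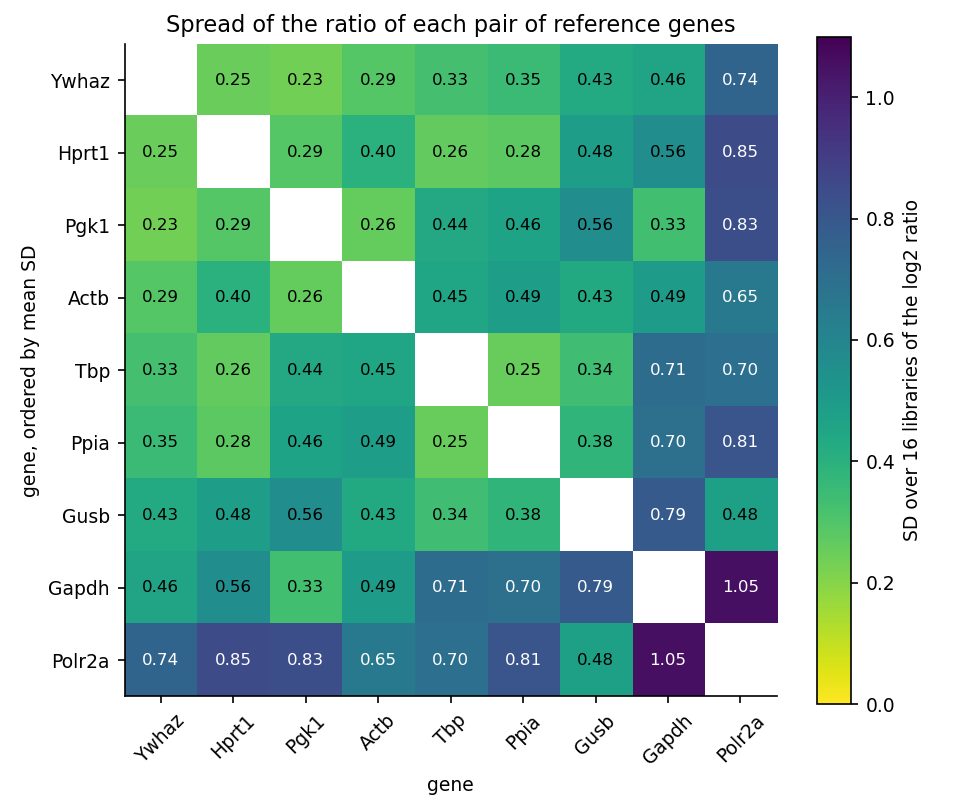
SD over 16 libraries of the log2 ratio for each of the 36 pairs of reference genes, with genes ordered by the mean of their row. Light cells are steady ratios; Ywhaz with Pgk1 has the lowest value (0.234) and Gapdh with Polr2a the highest (1.054), and the Polr2a row is dark throughout except with Gusb.

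Scaling on 1 gene passes that gene's own variation on to all others, so the following values restate the spread of each reference gene as a description and test nothing. The median SD of log2 levels was 0.357 over 8747 genes when libraries were scaled by DESeq2 size factors and 0.486 when scaled by total counts. Scaling on 1 gene gave 0.392 for Gusb, 0.435 for Tbp, 0.484 for Ppia, 0.491 for Ywhaz, 0.52 for Actb, 0.521 for Hprt1, 0.581 for Pgk1, 0.674 for Polr2a and 0.79 for Gapdh. The geometric mean of all 9 genes gave 0.425, and that of Actb, Gapdh and Pgk1 gave 0.605. Ppia and Tbp together, the pair left by the ratios, gave 0.442, and Tbp and Gusb, the pair with the lowest CV, gave 0.373. Pairs were chosen after their values were seen. Size factors are themselves medians over these and other genes. Relative to the size factors, the Gapdh factor was 0.48 in control 10 and 2.72 in control 8, whereas the Gusb factor stayed between 0.805 and 1.23.

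Differences between run codes were not detectable for the reference genes with 3 to 5 libraries a run. Runs A, B and D held 12 libraries and were fitted together, and none of the 9 genes passed in any of the 3 contrasts, either after adjustment or at an unadjusted p under 0.05 (edgeR quasi-likelihood test, 12952 genes tested). The background was 0% of all genes between A and B (13.7% at an unadjusted p under 0.05), 0% between A and D (5.49%) and 2.16% between B and D (11.3%). A count of 0 among 9 genes is what this background would give. DESeq2 called 568, 8 and 765 genes and none of the 9. With total count scaling 2 of the 9 (A and B) and 4 of the 9 (B and D) had an unadjusted p under 0.05. In the same fits 3030 (A and B) and 3414 (B and D) of all 12952 genes did. This scaling moved the median log2 difference of all genes from -0.042 to -0.496 (A and B) and from 0.054 to 0.528 (B and D). None of the 9 passed after adjustment. The point estimates were still sizeable for the variable genes. Gapdh averaged 28360 ± 6390 in run A (SD, n = 3), 48630 ± 32700 in run B (n = 5) and 38070 ± 15400 in run D (n = 4), and the B minus A difference of 0.76 ± 0.537 on the log2 scale did not pass. Polr2a averaged 2012 ± 625 in run A (n = 3), 1609 ± 800 in run B (n = 5) and 2449 ± 832 in run D (n = 4), with a D minus B difference of 0.65 ± 0.366. Gusb averaged 598.6 ± 10.4 in run A (n = 3), all above its values in run B, whose highest library had 546.4, but its B minus A difference of -0.28 ± 0.142 did not pass. Runs C, E and F had 1 or 2 libraries and were not compared. The study repeated its experiment at separate times and the labels give no date for a library, so a difference between runs and a difference between repeats cannot be told apart.

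The genes most like each reference gene over the 16 libraries were sought among 4078 genes with a symbol and a mean of at least 500, by Pearson's r of log2 levels. All values share the same libraries and size factors and are the highest of many, so they are given without a test. Actb was most like Arpc4 (r = 0.957), a subunit of the actin-nucleating Arp2/3 complex. Gapdh was most like Plek (0.963), the pleckstrin of platelets and leukocytes, and Skap2 (0.947), and Pgk1 was most like Ldha (0.956), lactate dehydrogenase A, and Rtn3 (0.953). Ywhaz paired with Rap1b (0.941), a small GTPase abundant in platelets, and Cmpk1 (0.927), and Hprt1 with Vps29 (0.902), a retromer subunit, and Aprt (0.898), the adenine salvage enzyme.

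Ppia was most like Hspe1 (0.971), the mitochondrial chaperonin HSP10, and Snrpg (0.956), a core protein of spliceosomal particles. Polr2a was most like Prrc2a (0.952) and Srrm1 (0.938), a splicing coactivator. For Tbp and Gusb, lowest by CV with size factors, the likeness was lower. It was 0.791 with M6pr and 0.784 with RGD1310592 for Tbp, and 0.826 with Myo1g for Gusb. Gapdh, Ppia, Actb and Pgk1 have processed copies elsewhere in mammalian genomes, and how the counting divided reads among such copies was not examined, so their levels carry that uncertainty.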

How the data were processed

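The deposited values are expected counts per gene that the authors made with RSEM 1.2.0. Per the labels and the study's methods, reads were called with CASAVA 1.8.2, trimmed, and aligned with Bowtie 0.12.9 to an Ensembl transcriptome of rat build rn5. RSEM divides a read that matches several transcripts among them, so near-identical copies can exchange counts. The study's replacement of outlying values was not applied here. Expected counts were rounded to whole numbers, and the 18031 genes listed in all 16 libraries were used. Library totals were 21466776 to 31189549, and the floor of 3 counts was 0.0962 to 0.14 CPM (counting error only).

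Normalized counts were divided by DESeq2 1.42.0 size factors, and log2 levels used a pseudocount of 1. Runs and slopes were tested with edgeR 4.0.16 (TMM, filterByExpr, quasi-likelihood F-test) in R 4.3.3, with Benjamini-Hochberg adjustment over all genes tested and a threshold of 0.05. An SE is the absolute log2 value divided by the square root of F. Slopes used 1 log2 covariate at a time. CVs were compared with the 200 genes nearest in log2 mean. The fits were tested on simulated counts. Run codes come from the names of the deposited data and not from the labels, and what they stand for is not stated.

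The named genes are the 9 members, the steadiest neighbour and the 2 most similar genes of each, and, from lists of related genes, up to 3 genes called and those with the lowest and highest CV among genes with a mean of at least 100. Further called genes of these lists were named after their values were seen. The members were taken by symbol and not by their values, but members, lists and tests were all chosen with earlier results of these data known. Hba1, Acta2, Pgk2 and Taf4 were not analysed here, and some genes that the rule names are not reported here. Alternatives were other scalings, no filter, DESeq2, a run term, libraries left out, robust spreads, other window sizes and the sum of both Ppia entries. Python 3.11.15, numpy 2.4.6, pandas 2.3.3 and matplotlib 3.10.9 were used.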

Additional observations from a re-analysis of the deposited data

Results flagged for a closer look

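Within the runs that hold 4 or 5 libraries (B and D), each of the 9 genes was checked for a library that stands apart from the rest of its run. Of 18 such checks 1 met the limit, and chance flags about 1 in 20. In run D (n = 4), Hprt1 had 865.0 normalized counts in control 12, while the other libraries of the run lay between 630.5 and 635.7. The gap was 0.977 of the range of the run. Control 12 also had the highest adipocyte and thymocyte marker sums (3993 and 6070) and the highest Tbp level (223.6). Their part in the Hprt1 value was not tested.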

How the results depend on the processing

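No paired analysis was possible because the labels give 1 group. The median CV of the 9 genes (23.1%, jackknife SE 3.0) was 27.3% with total count scaling and 26.9% without globin genes in the total. It was 21.5% to 24.0% when 1 library was left out. Spreads of another kind had medians of 26.9% (median absolute deviation over the median) and 26.5% (pooled SD of log2 levels within run codes, without runs E and F). The number of genes under the median of their neighbours was 5 to 6 in every setting and 6 to 7 with 1 library left out. Mean M (0.495) was 0.547 within run codes (without runs E and F), 0.446 without controls 2, 8, 10 and 12, and 0.459 to 0.506 with 1 library left out.

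Between runs, none of the 9 genes passed after adjustment in any setting. At an unadjusted p under 0.05 there were 2 (A and B) and 4 (B and D) with total count scaling, beside 3030 and 3414 of all 12952 genes. There was 1 (B and D) without control 4, beside 2425 of 12890 genes, and 1 without control 12, beside 1506 of 12767 genes. The number of all genes called was 568 (A and B), 8 (A and D) and 765 (B and D) with DESeq2. Between B and D it was 280, and 6 with total count scaling, 9 with scaling on the geometric mean of the 9 genes, and 0 without controls 2, 8, 10 and 12, where 1 gene passed between A and B. With 1 library left out it ranged from 0 to 508 (A and B, the highest without control 4), 0 to 2 (A and D) and 2 (without control 14) to 693 (without control 4) for B and D.

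For the globin share 4 genes passed, and 82 with DESeq2, 2 with a run term, 0 without controls 1 and 9, 2 without controls 2, 8, 10 and 12, 840 on the level of non-globin erythroid genes and 2 to 4 with 1 library left out; none was a reference gene. For the total count 13 genes passed, and 1 with size factors in edgeR, 575 without the filter, 0 with DESeq2, with a run term, without controls 2 and 4 or without controls 2, 8, 10 and 12, and 0 to 60 with 1 library left out, again with 0 reference genes.

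For the myeloid level 3061 genes passed, and 1067 with total count scaling, 1621 without controls 2, 8, 10 and 12, 528 with the lymphocyte level in the fit and 2112 to 3103 with 1 library left out. Reference genes were 0 with the lymphocyte level in the fit and 3 to 4 with 1 library left out. For the lymphocyte level 3122 genes passed, and 1659 with total count scaling, 1450 without controls 3 and 8, 0 without controls 2, 8, 10 and 12, 0 with the myeloid level in the fit and 1821 (without control 8) to 3299 with 1 library left out. Reference genes were 1, 2, 0 and 0 in those settings and 3 to 4 with 1 library left out. For the platelet level 374 genes passed, and 179 with total count scaling, 611 with DESeq2, 150 without controls 10 and 12, 84 without controls 2, 8, 10 and 12 and 282 to 439 with 1 library left out. Reference genes were 2 with DESeq2, 0 without controls 10 and 12, 0 without controls 2, 8, 10 and 12, and 1 with any 1 library left out.

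Slopes changed sign in 10 settings, none of them past the threshold before or after. On the lymphocyte level these were Hprt1 with the myeloid level in the fit (0.031), Tbp with a run term (-0.053), without controls 3 and 8 (-0.100) and without controls 2, 8, 10 and 12 (-0.027), and Polr2a without controls 3 and 8 (-0.159). On the myeloid level they were Ppia without controls 2, 8, 10 and 12 (0.034), Tbp with total count scaling (-0.054), and Ppia (0.052), Polr2a (0.158) and Gusb (0.045) with the lymphocyte level in the fit. The settings without controls 2, 8, 10 and 12 and with both levels in 1 fit were chosen after seeing the data. The cause of these changes was not tested, and settings with fewer libraries also have fewer degrees of freedom. Tbp, at 95 to 305 counts, is the gene most limited by depth.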
